A study of Mus musculus with 6 samples.

Results

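Mitosis genes are the transcripts that a cell makes to condense its chromosomes, build a spindle, attach and check the kinetochores, separate the sister chromatids and divide. The set described here was a list of 41 named mouse genes, taken as the array entries annotated to 1 of them alone, with the brightest entry used where a gene had several. Of these, 40 had an entry, out of 19938 genes with one, and 1, Ccnb1 (cyclin B1), was left out. Top2a was the 1 member with several entries of its own.

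The arrays measured RNA from stromal and fibroblastic mouse cells, with 1 array for each of 6 groups. The first was adult lymph node (LN) stroma of C57BL/6JJcl mice, sorted after enzyme digestion as the podoplanin+VCAM-1+ cells that lacked CD45 and CD31. BLS12 and BLS4, established stromal lines from adult LN of BALB/cA mice, were grown in serum-containing medium, either for 2 days with an agonistic goat antibody (polyclonal, 1 µg/ml) to the lymphotoxin β receptor, LTβR, or unstimulated. The last group was mouse embryonic fibroblasts (MEF), cultured in the same medium from C57BL/6JJcl embryos of days E11.5 to E13.5. No group received a control antibody, and each line is a single established line. Fresh stroma and the lines differed by strain, growth in culture and cell preparation (digestion and sorting). Fresh stroma and MEF differed by age, tissue, growth in culture and cell preparation. The lines and MEF, grown in the same medium, differed by strain, age, tissue and establishment as a line. These factors cannot be told apart.

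Most mitosis genes are switched on together, late in the cell cycle, and are kept off in resting cells. In their promoters the cell cycle genes homology region (CHR), read by the LIN54 subunit of the MuvB complex, works with CCAAT boxes, which bind the trimeric factor NF-Y. MuvB joins repressing partners in resting cells and B-MYB and FOXM1 in dividing cells, and the same transcripts are widely used as markers of proliferation. In fresh LN most stromal cells are at rest, while fibroblasts and stromal lines divide in culture.

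The promoters are shown as background, and whether their motifs bear on the members' levels on these arrays was not tested. Of the 40 members and Ccnb1, 34 matched a RefSeq promoter window in GRCm38.p6, which runs from 250 bases before to 50 after the annotated start of the gene. A CHR, searched as TTTGAA on both strands, stood in 26 of the 34 windows (76.5%), against 16.5% of the 17491 windows of protein-coding genes and 18.1% of all 27025 windows. A CCAAT box, searched as CCAAT on both strands, stood in 27 (79.4%), against 39% of protein-coding and 37.9% of all windows. Both occurred in 23 windows (67.6%), against 6.68% of protein-coding windows, and 4 windows had neither, those of Nuf2, Mad2l1, Pttg1 and Birc5. Matches of the 2 motifs may share a base and were counted separately. The 33 CHR matches in the members' windows had a median offset of 2 bases from the start, against -131.5 bases (before the start) in protein-coding windows. These are matches of letters and not tested binding sites.

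Below are 150-base stretches, from 120 bases before the start to 30 bases from it, of 8 members chosen after their values were seen. Capitals mark CHR and CCAAT matches on either strand. Cdk1, Ccnb2, Cdc20, Kif11 and Top2a carry both motifs, Anln, the member with the largest antibody difference, a CHR alone, and Pttg1 and Birc5 neither.
Cdk1 (chr10:69352883-69353032, reverse strand): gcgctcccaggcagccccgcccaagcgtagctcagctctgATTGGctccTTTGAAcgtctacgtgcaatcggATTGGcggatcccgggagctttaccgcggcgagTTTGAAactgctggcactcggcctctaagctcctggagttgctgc
Ccnb2 (chr9:70421525-70421674, reverse strand): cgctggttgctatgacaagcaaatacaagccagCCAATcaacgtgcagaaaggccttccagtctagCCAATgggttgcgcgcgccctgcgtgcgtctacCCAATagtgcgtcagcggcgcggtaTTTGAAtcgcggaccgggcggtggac
Cdc20 (chr4:118437314-118437463, reverse strand): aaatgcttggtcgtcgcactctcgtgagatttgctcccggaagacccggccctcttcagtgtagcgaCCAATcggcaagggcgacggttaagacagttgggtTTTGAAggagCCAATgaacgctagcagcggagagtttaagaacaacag
Kif11 (chr19:37376262-37376411, forward strand): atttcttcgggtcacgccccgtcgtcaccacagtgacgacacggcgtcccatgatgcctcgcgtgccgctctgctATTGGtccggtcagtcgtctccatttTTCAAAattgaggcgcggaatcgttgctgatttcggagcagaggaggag
Top2a (chr11:99024160-99024309, reverse strand): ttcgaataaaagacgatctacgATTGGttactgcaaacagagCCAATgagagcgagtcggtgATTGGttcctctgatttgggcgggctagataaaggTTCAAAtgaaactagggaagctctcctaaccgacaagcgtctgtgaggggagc
Anln (chr9:22389177-22389326, reverse strand): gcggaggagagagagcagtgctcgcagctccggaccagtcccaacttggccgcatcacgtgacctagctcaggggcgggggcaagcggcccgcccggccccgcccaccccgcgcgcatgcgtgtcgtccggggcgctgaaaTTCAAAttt
Pttg1 (chr11:43425952-43426101, reverse strand): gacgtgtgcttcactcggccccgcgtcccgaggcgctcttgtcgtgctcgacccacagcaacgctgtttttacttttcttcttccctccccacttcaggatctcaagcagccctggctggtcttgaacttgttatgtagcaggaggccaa
Birc5 (chr11:117849117-117849266, forward strand): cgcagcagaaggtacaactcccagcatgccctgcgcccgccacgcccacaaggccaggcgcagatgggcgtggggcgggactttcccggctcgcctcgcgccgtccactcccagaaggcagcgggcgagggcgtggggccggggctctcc

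Genes of DNA replication, which are also made in dividing cells but mostly earlier in the cycle, had other letters. Of 22 windows of replication genes, 4 had a CHR (18.2%), 14 a CCAAT box (63.6%) and 9 (40.9%) one of 4 spellings of an E2F site, which were TTTGGCGC, TTTCCCGC, TTTGCCGC and TTTCGCGC on both strands. An E2F spelling stood in 3 of the 34 mitosis windows (8.82%) and in 2.92% of protein-coding windows. In 16 windows of anaphase promoting complex subunits a CHR stood in 3 (18.8%) and a CCAAT box in 6 (37.5%). Among 59 windows of other mitosis genes, 33 had a CHR (55.9%).

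The arrays had median intensities between 51.5 and 56.3, and Pearson's r between arrays over all 35557 entries, which are not independent, ranged from 0.930 to 0.990. Array data carry no counts, and with 1 array per group the number of arrays limits the precision. On the labelled LN stroma array all 11 stromal markers with an entry lay at or above the array median. Ccl19, the T zone chemokine, had a log2 intensity of 12.49 there, against 6.39 or less on each of the other 5 arrays. Vcam1, Il7, Bst1, Col1a1 and Col3a1 were also highest there. Pdpn (10.20) and Ltbr (8.25) were lowest there, and Pdgfra, Pdgfrb and Thy1 lay between. On the BLS and MEF arrays 9 or 10 of the 11 reached the median. Lymphocyte markers were dim on the LN array (0 of 10 at or above its median) and on the others (0 or 1 of 10). On the MEF array 10 of 11 myeloid markers reached the median, against 2 or 3 on every other array, and 7 of 10 endothelial markers did so on the LN array, against 1 to 3 on the others.

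Across the 6 arrays the members stood highest in unstimulated BLS12 and in MEF and lowest in fresh LN stroma. Each member was set against its own mean over the arrays on the log2 scale. The mean deviation was -1.57 ± 0.70 in LN stroma, 0.25 ± 0.25 in antibody-treated BLS12, 1.25 ± 0.36 in unstimulated BLS12, -0.23 ± 0.21 in antibody-treated BLS4, -0.61 ± 0.26 in unstimulated BLS4 and 0.92 ± 0.38 in MEF (SD over 40 genes, which are not replicates). The highest of the 6 levels was in unstimulated BLS12 for 29 members and in MEF for the other 11. The lowest was in LN stroma for 37, and in 21 members the order was unstimulated BLS12, MEF, antibody-treated BLS12, antibody-treated BLS4, unstimulated BLS4 and LN stroma. Each member's profile correlated with the mean profile of the other members with a median Pearson's r of 0.976 over the 6 arrays, and the lowest was 0.14, for Pttg1. This describes 6 arrays that share lines and a scale. No share of all genes is set beside these counts and correlations, so how far they depart from genes at large was not tested. The heat map of the members shows these profiles.

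**Figure D1:**
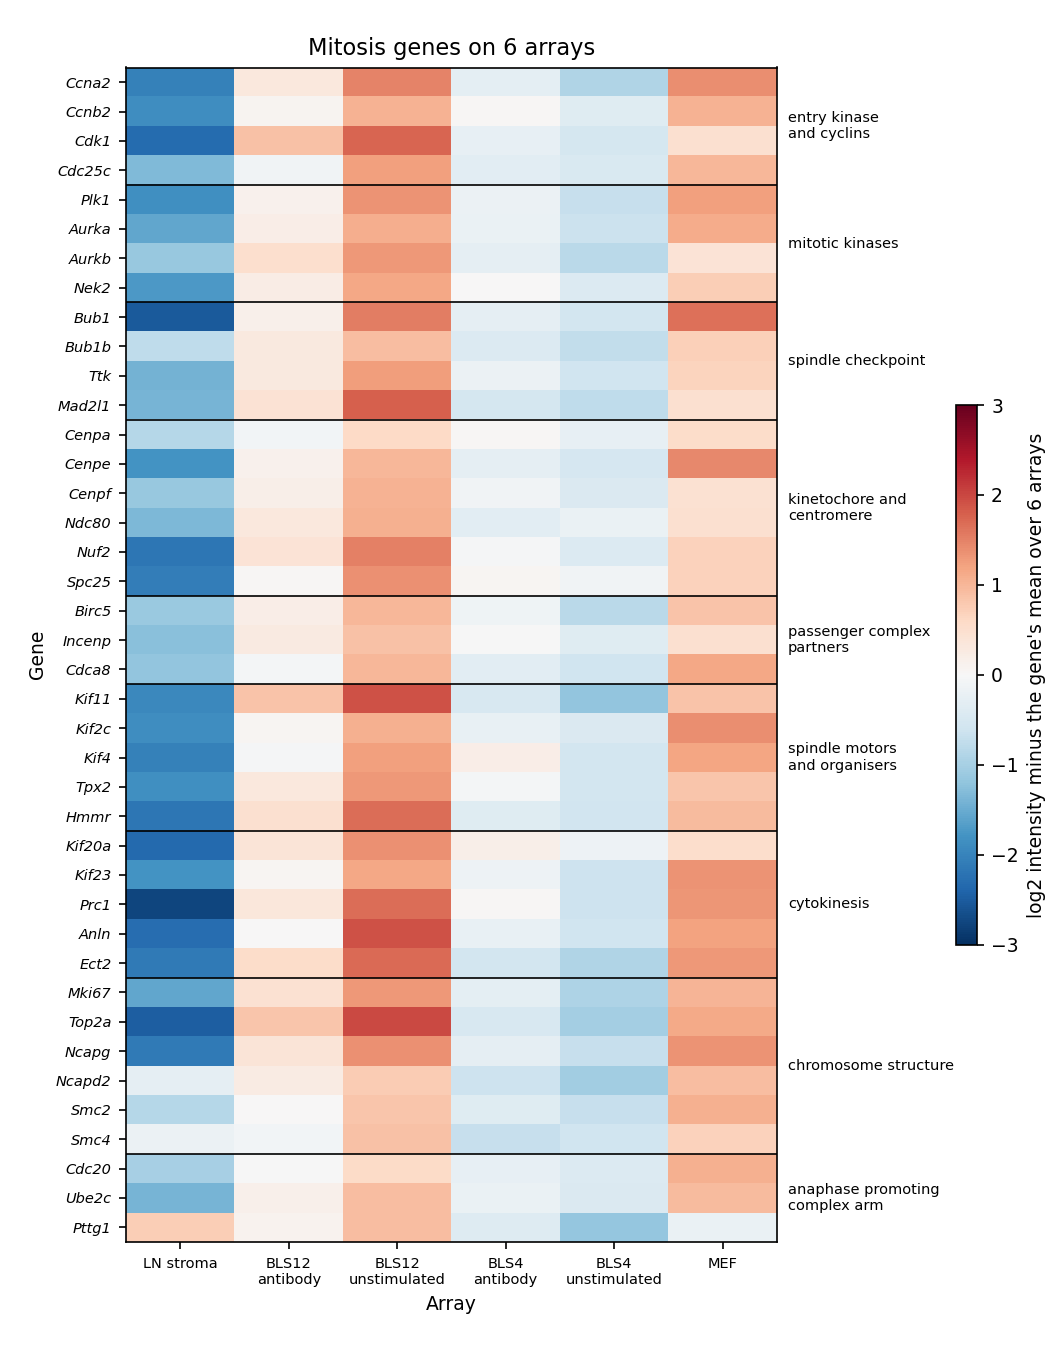
Log2 intensity of 40 mitosis genes (rows, by role) on 6 arrays (columns), as the difference from each gene's mean over the arrays (red above, blue below). The LN stroma column is the lowest for 37 genes and the unstimulated BLS12 column the highest for 29, while Pttg1 at the bottom is above its mean in LN stroma.

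The comparison of antibody with no stimulation asked what LTβR activation did in each line. All 40 members were lower with antibody on the BLS12 arrays, with a median log2 difference of -0.97 (0.511 times the unstimulated level), and 38 were higher with antibody on the BLS4 arrays, with a median of 0.36 (1.29 times). Of all 11988 genes tested, 43.5% were above 0 in BLS12 and 53.3% in BLS4. The differences ran from -1.88 (Anln) to -0.50 (Ncapd2) in BLS12 and from -0.11 (Ndc80) to 0.76 (Pttg1) in BLS4. The medians of all genes tested were -0.05 in BLS12 and 0.02 in BLS4. The array-wide median over all entries was 0.13 higher with antibody in BLS12 and 0.02 higher in BLS4, opposite in sign to the BLS12 members. In these bulk samples fewer dividing cells and less transcript per cell cannot be told apart.

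In size, 16 of the 40 members were at least 2-fold lower with antibody in BLS12, where 2.13% of all genes tested were, and 0 were at least 2-fold higher in BLS4, where 0.968% of all genes were. The combination of lower in BLS12 and higher in BLS4 held for 38 of 40 members and for 24.9% of all genes tested. The exceptions were Ndc80, a kinetochore protein that binds microtubules, and Smc4, a condensin subunit, which had differences of -0.11 and -0.10 in BLS4. Ndc80 lay below the array median on both BLS4 arrays. The BLS12 difference minus the BLS4 difference was negative in all 40 (above 0 in 40.3% of all genes), with a median of -1.39 against -0.07 over all genes, and was at least 2-fold in 32, against 2.39% of all genes. With 1 array per line and condition this difference of responses has no test. Myeloid markers on the BLS12 arrays summed to an intensity of 1155 with antibody and 547 without (2 of 11 at or above the array median on each), with Lyz2 at log2 levels of 9.63 and 7.82, and their part in the result was not tested.

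**Figure D2:**
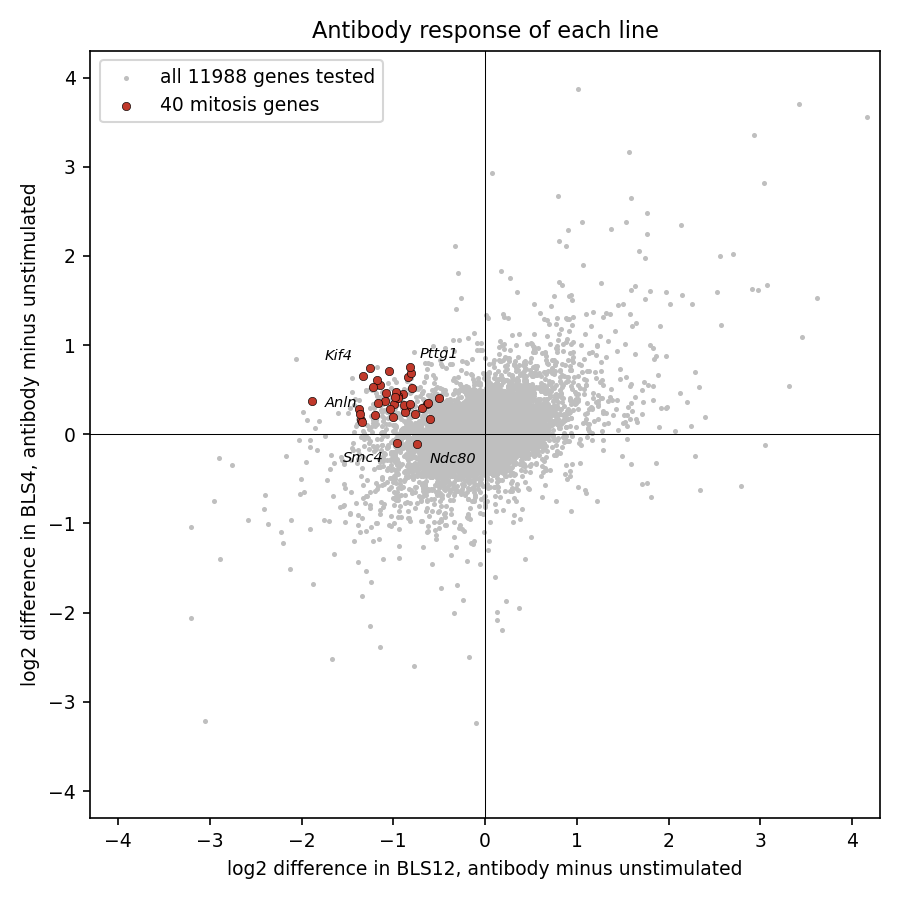
Log2 difference of antibody minus unstimulated in BLS12 (horizontal) and BLS4 (vertical) for 40 mitosis genes (red) and all 11988 genes tested (grey), each from 1 array per condition. The red points lie left of 0, and all but Ndc80 and Smc4 lie above 0.

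With both lines in 1 additive model of line and antibody, 0 of the 39 members tested passed for the antibody in limma (lowest adjusted p = 0.46; 0 at an unadjusted p under 0.05, against 1396 of all genes), where 0.2% of all genes passed as higher and 0.0751% as lower. Cdc25c lay below the filter on dim genes. All 39 had negative mean differences, from -0.75 to -0.03, with a median of -0.28 against -0.017 over all genes. The model's only residual is the disagreement between the lines. Its standard error was 0.321 in the median member and 0.144 in the median gene.

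Setting BLS12 against BLS4 asked how far the lines differ. In limma 14 of the 39 members tested passed as higher in BLS12 and 0 as lower, where 12.2% of all genes tested passed as higher and 11.4% as lower, and 25 members did not pass. The 14 were Cdk1, Ccna2, Aurkb, Mad2l1, Bub1b, Ndc80, Kif11, Hmmr, Ect2, Mki67, Top2a, Ncapg, Ncapd2 and Smc4. A further 21 had an adjusted p between 0.05 and 0.1. The median difference over the members was 1.11, against 0.0026 over all genes, and the members ranged from 0.36 (Cenpa, adjusted p = 0.348) to 2.22 (Kif11). With each array centred on its median 22 members passed, and without the antibody term 4. The standard error again carries the unequal antibody responses of the lines, so passing does not rank the members by line difference. Ndc80 passed at 0.96 (SE 0.19), while Anln did not at 1.38 (SE 0.497). Ndc80 lay below the array median on both BLS4 arrays, so it met the filter only through the BLS12 arrays, where it was high. With all 4 arrays required at the median, 13 of the 14 passed.

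Taken apart by condition, the gap was much wider without antibody. Without antibody the median BLS12 minus BLS4 difference was 1.78 (3.43 times), with 38 members at least 2-fold higher, where 6.82% of all genes were, and all 40 above 0, where 52% of all genes were. With antibody it was 0.39 (1.31 times), with 4 members at least 2-fold higher, where 3.5% of all genes were, and 37 above 0, where 49.3% were. Those 4 were Kif11, Top2a, Cdk1 and Ect2. The difference was smaller with antibody in all 40 members, and it was below 0 with antibody in Kif4 (-0.22), Cenpa (-0.13) and Spc25 (-0.04). These values come from the same 4 arrays as the responses within each line. Gene by gene, the change of the gap with antibody equals the BLS12 difference minus the BLS4 difference given above. It is thus the same result and not a second one, and 40.3% of all genes tested were above 0 in it.

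**Figure D3:**
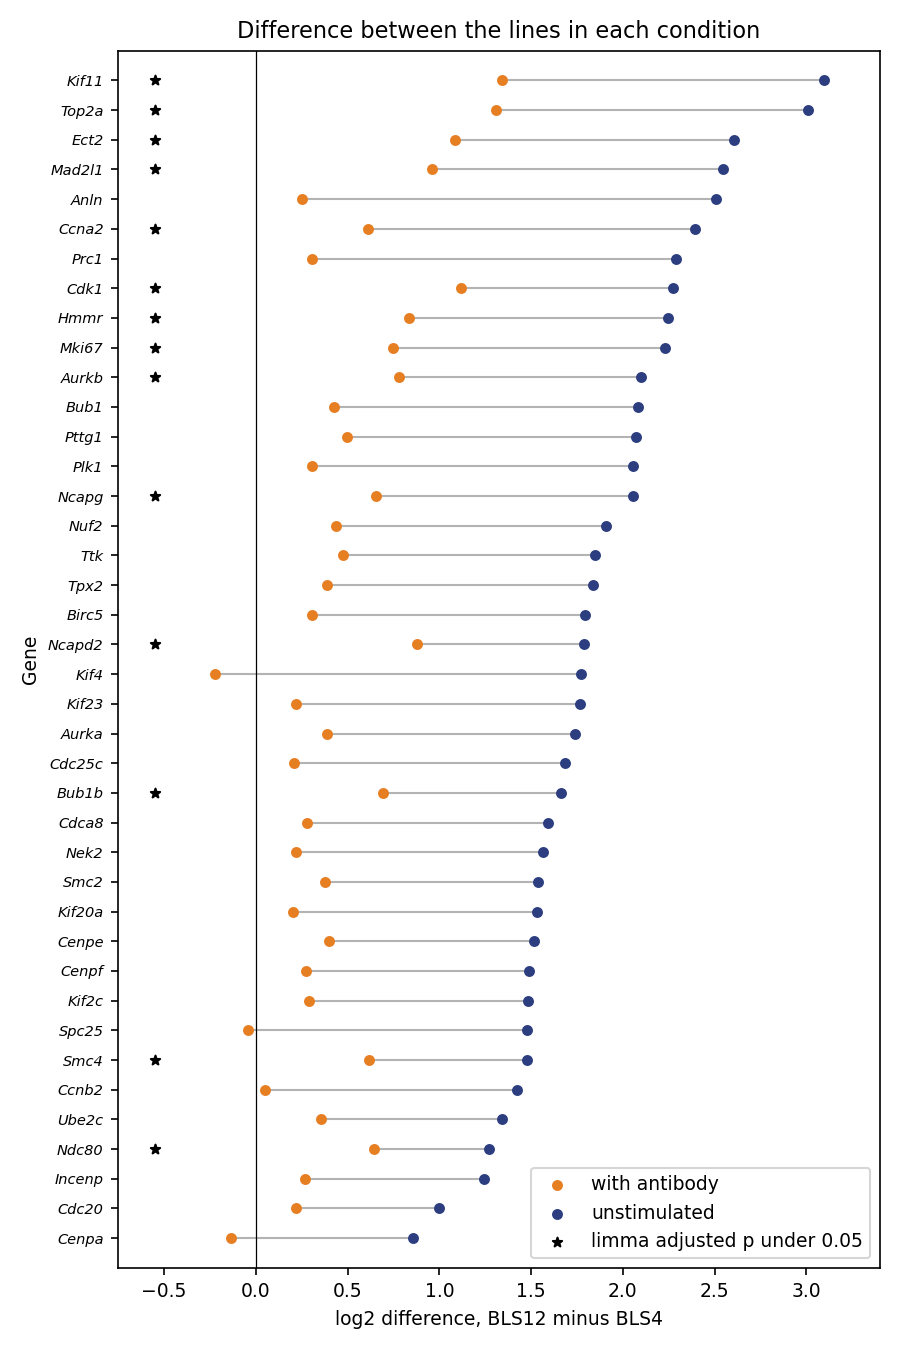
Log2 difference of BLS12 minus BLS4 for each of 40 mitosis genes, with antibody (orange) and unstimulated (blue), 1 array each; stars mark the 14 genes past the limma threshold. Every orange point lies left of its blue point, which restates the negative difference of responses.

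Entry into mitosis is driven by the kinase Cdk1 with cyclins A and B, and released by the phosphatase Cdc25c. Cdk1 had log2 intensities of 9.86 with antibody and 10.73 without in BLS12, 8.74 and 8.45 in BLS4, 6.67 in LN stroma and 9.46 in MEF. Both BLS12 levels lay above both BLS4 levels and MEF, and LN stroma was lowest. Cdk1 was higher in BLS12 by 1.70 (SE 0.28, adjusted p = 0.013, limma). Ccna2, cyclin A2, had 8.17 with antibody and 9.34 without in BLS12, 7.56 and 6.95 in BLS4, 5.82 in LN stroma and 9.23 in MEF. It was higher in BLS12 by 1.50 (SE 0.401, adjusted p = 0.0473), while Ccnb2, cyclin B2, differed by 0.73 (adjusted p = 0.155), with a gap of 1.42 without antibody and 0.05 with it. Cdc25c, untested, was at 5.57 with antibody and 6.91 without in BLS12.

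The mitotic kinases drive the later steps. Plk1, which acts at centrosomes, kinetochores and the midbody, had 8.24 with antibody and 9.46 without in BLS12, 7.93 and 7.40 in BLS4, 6.26 in LN stroma and 9.33 in MEF. Its difference between the lines was 1.18 (adjusted p = 0.0843) and did not pass. Aurkb, the kinase of the chromosomal passenger complex, had 8.13 with antibody and 8.92 without in BLS12, 7.35 and 6.83 in BLS4, 6.49 in LN stroma and 8.02 in MEF, and was higher in BLS12 by 1.44 (SE 0.31, adjusted p = 0.0264, limma). Of the 4 kinases, with Aurka (centrosome maturation) and Nek2 (centrosome separation), 1 passed as higher and 0 as lower. The partners of Aurkb, Birc5 (survivin), Incenp and Cdca8 (borealin), had 0 passing of 3. Over all genes tested 12.2% passed as higher and 11.4% as lower, so counts from so few genes do not set these roles apart. Birc5 had 7.07 with antibody and 7.88 without in BLS12, 6.76 and 6.08 in BLS4, 5.76 in LN stroma and 7.74 in MEF. It thus lay closer between the lines with antibody, by 0.31 against 1.80. Cdca8 had 5.97 with antibody and 7.01 without in BLS12, 5.69 and 5.41 in BLS4, 4.84 in LN stroma and 7.19 in MEF, so that MEF and unstimulated BLS12 were the 2 high arrays.

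The spindle checkpoint holds anaphase until every kinetochore is attached. Mad2l1, its diffusible inhibitor, had 8.99 with antibody and 10.35 without in BLS12, 8.03 and 7.81 in BLS4, 7.18 in LN stroma and 9.04 in MEF. It was higher in BLS12 by 1.75 (SE 0.362, adjusted p = 0.0234, limma), as was Bub1b (BubR1) by 1.18 (adjusted p = 0.0243). Bub1, a checkpoint kinase, had 6.57 with antibody and 7.95 without in BLS12, 6.15 and 5.87 in BLS4, 3.88 in LN stroma and 8.07 in MEF. MEF was its highest array, and its LN level was far below the array median of 5.80. Bub1 (1.25, adjusted p = 0.0645) and the kinase Ttk (1.16, adjusted p = 0.052) did not pass between the lines.

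Kinetochore proteins join centromeric chromatin to microtubules. Of 6 members, 1, Ndc80, was higher in BLS12 by 0.96 (SE 0.19, adjusted p = 0.0211, limma), a share near the 12.2% of all genes tested. It met the filter on dim genes only through the BLS12 arrays, and 5 members did not pass. Cenpe (0.96, adjusted p = 0.0562) was just outside. Nuf2, the partner of Ndc80 in its complex, had 8.08 with antibody and 9.18 without in BLS12, 7.64 and 7.27 in BLS4, 5.50 in LN stroma and 8.36 in MEF. Cenpe, a kinetochore motor, had 6.38 with antibody and 7.25 without in BLS12, 5.98 and 5.74 in BLS4, 4.46 in LN stroma and 7.68 in MEF. Within the complex the antibody differences were unequal: Spc25 had -1.36 in BLS12 and 0.16 in BLS4, Nuf2 -1.10 and 0.38, and Ndc80 -0.74 and -0.11. In BLS4 Ndc80 was dim, at 5.60 with antibody and 5.71 without, below the array medians of 5.76 and 5.74. Cenpa, the centromeric histone, had the smallest gap between the unstimulated lines of all 40 members, 0.85.

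Among spindle motors and organisers was the member with the largest average gap between the lines. Kif11, the kinesin that pushes spindle poles apart, had 8.01 with antibody and 9.05 without in BLS12, 6.66 and 5.96 in BLS4, 5.21 in LN stroma and 8.02 in MEF. It was higher in BLS12 by 2.22 (SE 0.395, adjusted p = 0.0156, limma). Hmmr, a spindle assembly factor and hyaluronan receptor, had 7.07 with antibody and 8.27 without in BLS12, 6.24 and 6.02 in BLS4, 4.43 in LN stroma and 7.55 in MEF, and was higher in BLS12 by 1.54 (SE 0.329, adjusted p = 0.0256). Kif2c, Kif4 and Tpx2, the activator of Aurora A, did not pass. Kif4, a chromosome-bound kinesin, had the second largest difference of responses, -1.99, with -1.25 in BLS12 and 0.74 in BLS4.

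Cytokinesis genes had the largest antibody differences in BLS12 of the role groups, with a median of -1.17. Anln, the actin-binding scaffold anillin, had 8.26 with antibody and 10.14 without in BLS12, 8.004 and 7.63 in BLS4, 5.95 in LN stroma and 9.45 in MEF. Antibody-treated BLS12 lay 1.88 below unstimulated BLS12 and within 0.25 of antibody-treated BLS4, and the average difference between the lines did not pass (1.38, adjusted p = 0.0996). Ect2, the exchange factor that activates RhoA at the furrow, had 7.99 with antibody and 9.15 without in BLS12, 6.90 and 6.54 in BLS4, 5.33 in LN stroma and 8.75 in MEF. It was higher in BLS12 by 1.85 (SE 0.35, adjusted p = 0.0183, limma), and Prc1, which bundles midzone microtubules (1.30, adjusted p = 0.088), Kif23 and Kif20a did not pass.

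Of 6 genes for chromosome structure, 5 were higher in BLS12, where 12.2% of all genes tested were: Top2a, Mki67 and the condensin subunits Ncapg, Ncapd2 and Smc4. Top2a, the topoisomerase that untangles chromosomes, had 8.98 with antibody and 10.13 without in BLS12, 7.67 and 7.12 in BLS4, 5.67 in LN stroma and 9.29 in MEF. Its difference between the lines was 2.16 (SE 0.385, adjusted p = 0.0157, limma). Mki67, the proliferation marker Ki-67 that coats mitotic chromosomes, had 7.93 with antibody and 8.77 without in BLS12, 7.18 and 6.53 in BLS4, 5.91 in LN stroma and 8.49 in MEF, with a difference of 1.49 (SE 0.342, adjusted p = 0.0316). All 4 BLS levels of both genes lay above LN stroma. Smc2 did not pass (adjusted p = 0.0605). Ncapd2 (7.19) and Smc4 (7.71) were the 2 members besides Pttg1 with LN levels above unstimulated BLS4, which had 6.43 and 7.29.

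Exit from mitosis runs through the anaphase promoting complex, with Cdc20 as activator, Ube2c as its ubiquitin-conjugating enzyme and Pttg1 (securin) as substrate. None of the 3 passed between the lines in limma (adjusted p = 0.0952, 0.0611 and 0.0543, all 3 with an unadjusted p under 0.05). Over all genes tested 12.2% passed as higher and 11.4% as lower. Ube2c had 7.14 with antibody and 7.90 without in BLS12, 6.79 and 6.56 in BLS4, 5.60 in LN stroma and 7.93 in MEF. Pttg1 had 7.78 with antibody and 8.60 without in BLS12, 7.28 and 6.53 in BLS4, 8.42 in LN stroma and 7.48 in MEF. Among the lines Pttg1 ran with the other members, and in LN stroma it was above MEF by 0.93, the only member to be so.

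Fresh LN stroma had much lower levels than MEF. Of the 40 members 39 were lower (43.2% of genes kept were above 0), 38 of them at least 2-fold (12.1% of 12612 genes kept) and 28 at least 4-fold (2.93%), with a median of -2.67 against -0.11 over all genes. The extremes were Bub1 at -4.19 and Pttg1 at 0.93. On the LN array 22 members lay below the array median, so these sizes are approximate. Myeloid markers summed to an intensity of 557 on the LN array and 2820 on the MEF array, and their part in the difference was not tested.

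By role, the median difference was widest in cytokinesis genes (-3.42) and spindle motors and organisers (-3.13) and narrowest in passenger complex partners (-1.97) and checkpoint genes (-1.98). Against antibody-treated BLS12, LN stroma was at least 2-fold lower in 34 of 40 members (9.52% of genes kept) and 4-fold lower in 15 (1.69%), with a median of -1.92. Against unstimulated BLS12 the counts were 39 (12.7%) and 33 (2.71%), with a median of -2.89. Against antibody-treated BLS4 they were 30 (8.11%) and 8 (1.46%), with a median of -1.49. Against unstimulated BLS4 they were 21 (8.14%) and 2 (1.48%), with a median of -1.13. Pttg1 was the 1 member at least 2-fold higher in LN stroma than in antibody-treated BLS4 (9.12% of genes kept) and in unstimulated BLS4 (9.5%). Among roles, the LN difference from unstimulated BLS4 was widest in cytokinesis genes (-1.68) and narrowest in chromosome structure (-0.39). The gap to fresh stroma was thus narrower with antibody in BLS12 and wider with antibody in BLS4. Since the LN level cancels gene by gene, this restates the antibody difference within each line and is not a separate result. Endothelial markers summed to 805 on the LN array and to between 359 and 388 on the BLS arrays, and their part was not tested. These comparisons share the LN array and had no test.

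Against MEF, unstimulated BLS12 had a median difference of 0.25, with 29 members higher (52.3% of genes kept), 4 of them at least 2-fold (6.35%), and 0 at least 2-fold lower (7.92%). Antibody-treated BLS12 had a median of -0.67, with 12 at least 2-fold lower (9.16%), antibody-treated BLS4 -1.30, with 25 (6.83%), and unstimulated BLS4 -1.51, with 33 (7.78%). All 40 members were below MEF on both BLS4 arrays, where 49.6% of genes kept were above 0 with antibody and 48.7% without. These comparisons share the MEF array and had no test, and strain, age, tissue and establishment as a line cannot be told apart in them. Myeloid markers summed to an intensity of 2820 on the MEF array and to between 547 and 1155 on the BLS arrays, and their part was not tested. The plot of differences from MEF shows the 5 arrays side by side.

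**Figure D4:**
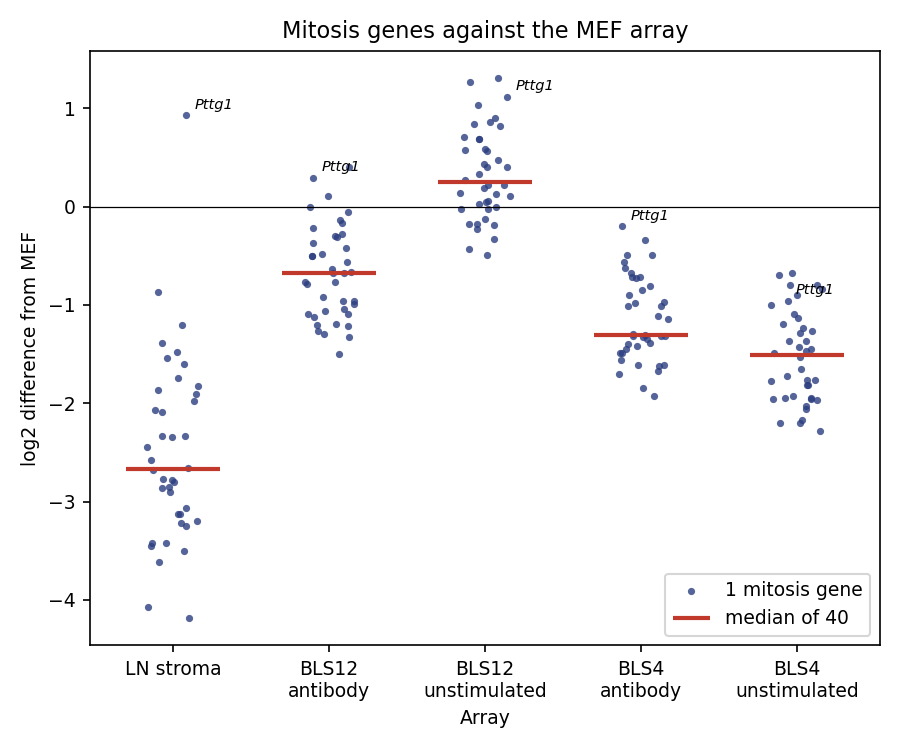
Log2 difference of each of 40 mitosis genes from the MEF array (vertical) on the other 5 arrays (horizontal), with the median as a red bar; Pttg1 is labelled. LN stroma has a median of -2.67 and unstimulated BLS12 of 0.25, and the MEF level is shared by all 5 columns.

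Other genes of mitosis, cell cycle control and replication were described from lists. Over all genes tested, 12.2% passed as higher in BLS12 and 11.4% as lower, and with antibody 43.5% were above 0 in BLS12 and 53.3% in BLS4. Of 63 other mitosis genes with an entry (54 tested), 24 were higher in BLS12 and 0 lower in limma, and 61 were lower with antibody in BLS12 (median -0.83) and 57 higher in BLS4 (median 0.23). Shcbp1 (1.67), Cenpk (1.61) and Spag5 (1.58) had the largest line differences. Replication genes went the same way: of 27, 18 were higher in BLS12 and 0 lower. Their median antibody differences were -0.46 in BLS12 and 0.25 in BLS4, against -0.97 and 0.36 in the members. Their median BLS12 minus BLS4 difference with antibody was 0.54, against 0.39 in the members. Among replication genes Prim1 (2.02) and Mcm6 (1.88) differed most between the lines, and Mcm3, a helicase subunit, by 1.24 (SE 0.225, adjusted p = 0.0164). Pcna, the sliding clamp, differed by 0.24 (adjusted p = 0.541).

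Subunits and regulators of the anaphase promoting complex, present through much of the cycle, had medians of -0.29 in BLS12 and 0.04 in BLS4, and of 17, 2 were higher in BLS12 and 0 lower, a share near the 12.2% of all genes. The largest was Fbxo5, the inhibitor Emi1, by 2.04. Of 26 activators and repressors (25 tested), 4 were higher in BLS12, again near the 12.2% of all genes, and 1, Rbl2, was lower, against 11.4% of all genes. Foxm1 followed the members, with 6.95 with antibody and 7.62 without in BLS12, 6.79 and 6.50 in BLS4, 5.78 in LN stroma and 7.51 in MEF, but did not pass between the lines (0.64, adjusted p = 0.116), nor did Mybl2, which encodes B-MYB (0.55, adjusted p = 0.151). Rbl2, the p130 pocket protein of resting cells, was lower in BLS12 (-0.55, adjusted p = 0.0464), with 8.08 with antibody and 8.13 without in BLS12, 8.51 and 8.80 in BLS4, 8.80 in LN stroma and 7.72 in MEF.

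E2f1, an activator of replication genes, had 7.49 with antibody and 8.25 without in BLS12, 8.14 and 8.29 in BLS4, 6.40 in LN stroma and 8.06 in MEF, and did not pass between the lines (-0.34, adjusted p = 0.246).

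Genes of growth and G1 had mixed profiles. Of 9 G1 cyclins and kinases (8 tested), 2 were higher in BLS12 and 1 lower, against 12.2% and 11.4% of all genes. All 9 were lower in LN stroma than in MEF, a comparison in which 43.2% of genes kept were above 0. The kinase Cdk2, which acts with cyclins E and A, had 9.51 with antibody and 9.88 without in BLS12, 8.53 and 8.29 in BLS4, 7.23 in LN stroma and 8.71 in MEF. It was higher in BLS12 by 1.28 (SE 0.188, adjusted p = 0.00929, limma), and like the members it was lower with antibody in BLS12 and higher in BLS4. Cyclin E1, Ccne1, likewise had differences of -1.08 with antibody in BLS12 and 0.06 in BLS4, and did not pass between the lines (0.61, adjusted p = 0.165). Ccne2, untested, had -1.21 and -0.10.

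Myc had higher levels with antibody in both lines, at 10.27 with it and 9.43 without in BLS12 and 9.40 and 7.73 in BLS4, and 11.25 in LN stroma and 9.50 in MEF. Myc was thus highest in LN stroma, where mitosis genes were lowest, and the part of digestion and sorting in this was not tested. Its antibody difference did not pass (1.26, adjusted p = 0.117), and it was higher in BLS12 by 1.28 (adjusted p = 0.0147). Cdk6, a G1 kinase, had 9.83 with antibody and 8.92 without in BLS12 and 8.50 and 6.21 in BLS4 (antibody difference 1.60, adjusted p = 0.147). It was higher in BLS12 by 2.02 (SE 0.322, adjusted p = 0.0118). Cyclin D2, Ccnd2, was lower in BLS12 (-0.61, adjusted p = 0.0426), and cyclin D1 did not pass (-0.32, adjusted p = 0.276).

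Of 7 CDK inhibitors listed, Cdkn1a (p21) had no entry naming it alone and was not looked at. Of the 6 with an entry, 1 was lower in BLS12 and 1 higher, where 11.4% and 12.2% of all genes tested were. Cdkn2b (p15) was lower, by a difference of -2.12 (SE 0.168, adjusted p = 0.00157, limma), and Cdkn1b (p27) higher, by 0.56 (adjusted p = 0.0385). Cdkn2b had 7.52 with antibody and 7.74 without in BLS12, 9.41 and 10.09 in BLS4, 7.04 in LN stroma and 9.87 in MEF. Both BLS4 arrays and MEF were high, and both BLS12 arrays and LN stroma low. Cdkn2a differed by -0.28 (adjusted p = 0.203), Cdkn1c by -0.24 (adjusted p = 0.267) and Cdkn2c by 0.25 (adjusted p = 0.366), and all 6 were lower with antibody in BLS12 and 5 of 6 in BLS4, where 43.5% and 53.3% of all genes were above 0. Of 14 targets of p53, 5 were lower in BLS12 and 0 higher, against 11.4% and 12.2% of all genes, with antibody medians of 0.11 in BLS12 and 0.20 in BLS4. In LN stroma against MEF their median was -1.67, while Btg2, an antiproliferative gene, was 3.22 higher. The part of digestion and sorting in the Btg2 level was not tested.

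**Figure D5:**
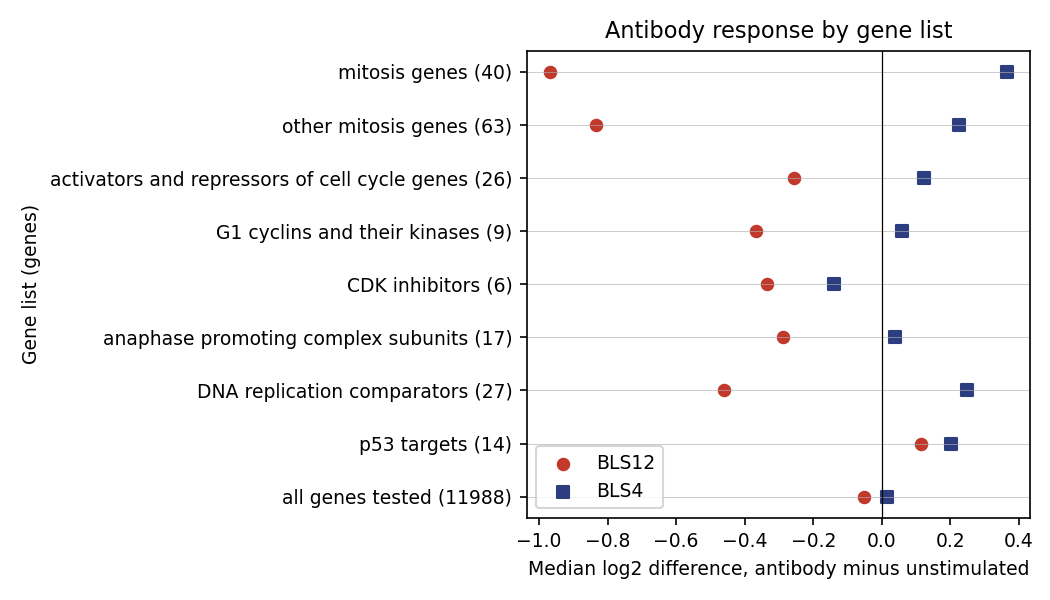
Median log2 difference of antibody minus unstimulated (horizontal) for each gene list and for all genes tested (vertical, number of genes in brackets), in BLS12 (red circles) and BLS4 (blue squares). Mitosis genes have the medians farthest apart, -0.97 and 0.36, and all genes tested have -0.05 and 0.02.

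The genes outside the list whose profile over the 6 arrays was most like the members' mean were Ppp2r5d (Pearson's r = 0.999), Gins2 (0.996), Pmpcb (0.996), Pno1 (0.996) and Dpp3 (0.996). They were ranked over the tested genes that are not members, and their range over the arrays was 0.65 to 1.73 log2 units. Gins2 belongs to the replication list.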

How the data were processed

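The authors deposited 1 linear intensity per array entry and array. Per the submitters' processing notes, Affymetrix Expression Console 1.1 produced them. Summary algorithm, normalization and genome build: not given in the sources used here. No pseudocount was added before log2, since intensities started at 3.55. Of 35557 entries, 21789 named 1 gene, 1621 several (2 of them naming Top2a) and 12147 none; only the first were used, by GEO's platform annotation, and 21698 matched RefSeq by Entrez ID. A gene's brightest entry had the highest mean log2 intensity.

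An additive model of line and antibody was fitted to the 4 BLS arrays with limma 3.58.1 (lmFit and eBayes, run under R 4.3.3). Its two-sided p-values were adjusted by Benjamini-Hochberg over 11988 genes, kept where 2 of the 4 arrays reached the array median, and a threshold of 0.05. It had 1 residual degree of freedom. That residual is the disagreement between the antibody differences of the lines. The p-values rest on it, moderated over genes, and not on replicates, and part of this spread may be technical. Comparisons with LN stroma or MEF had no test: the share of genes past 2-fold was taken over genes with 1 array of the pair at its median. The fit was tested on simulated data with the same antibody effect in both lines, so that test does not cover opposite responses.

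Alternatives were median centring, quantile normalization, other filters, means over entries, other model terms, a trended prior and 4-fold. Members with full values were the 2 of each role with the largest line difference and 8 fixed names; up to 3 genes of each other list were named by size, besides fixed names. Members and lists were chosen with earlier results of these data known.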

Additional observations from a re-analysis of the deposited data

Results flagged for a closer look

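In 38 of the 40 mitosis genes the single antibody-treated array was lower than the unstimulated one in BLS12 and higher in BLS4. The difference between the lines' responses was not tested, since each line has 1 array per condition. The values below are the log2 response in BLS12 minus that in BLS4.

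Among entry genes it was -1.78 for Ccna2, -1.48 for Cdc25c, -1.37 for Ccnb2 and -1.15 for Cdk1. Among kinases it was -1.75 for Plk1, -1.35 for Aurka and Nek2, and -1.32 for Aurkb. Checkpoint genes had -1.66 (Bub1), -1.58 (Mad2l1), -1.37 (Ttk) and -0.97 (Bub1b). Kinetochore genes had -1.52 (Spc25), -1.47 (Nuf2), -1.22 (Cenpf), -1.11 (Cenpe) and -0.99 (Cenpa). Passenger complex partners had -1.49 (Birc5), -1.32 (Cdca8) and -0.97 (Incenp). Spindle motors and organisers had -1.99 (Kif4), -1.75 (Kif11), -1.45 (Tpx2), -1.41 (Hmmr) and -1.19 (Kif2c). Cytokinesis genes had -2.26 (Anln), -1.98 (Prc1), -1.55 (Kif23), -1.52 (Ect2) and -1.33 (Kif20a). Chromosome structure genes had -1.70 (Top2a), -1.48 (Mki67), -1.40 (Ncapg), -1.16 (Smc2) and -0.91 (Ncapd2). In the exit arm Pttg1 had -1.58, Ube2c -0.99 and Cdc20 -0.78.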

How the results depend on the processing

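With centred arrays or quantile normalization, 38 members still had opposite antibody differences in the lines, and the 4 medians of the members within lines and conditions kept their sign and size within 1.5 times under all 5 alternatives. Centring moved the median antibody difference of all genes in BLS12 to -0.18, against -0.05. Members past the threshold for the antibody were 0 under every alternative. For BLS12 against BLS4, 22 members passed after centring, 20 with all 4 arrays at the median, 12 after quantile normalization and 4 without the antibody term; 11 passed in all settings but the last. No member changed sign in either comparison. Over all genes the antibody called 24 higher and 9 lower, 54 and 44 after centring, 5 and 1 after quantile normalization, 74 and 41 with all 4 arrays at the median, 38 and 16 with no filter, and 0 without the line term, which pairs the antibody-treated and unstimulated arrays of a line; line calls were 2835, and 1428 without the antibody term. Why these counts moved was not tested.

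Counting only members past the pair's filter, 33 of 39 were 2-fold apart for LN stroma against antibody-treated BLS12, 29 of 37 against antibody-treated BLS4 and 19 of 34 against unstimulated BLS4. With both arrays at the median, which left 18 members in each comparison with LN stroma, LN counts were 12 and 17 of 18 against BLS12 with and without antibody, 10 and 7 of 18 against BLS4, and 16 of 18 against MEF. At 4-fold they were 15 against antibody-treated BLS12, 8 and 2 against BLS4 with and without antibody, and, for the lines against MEF, 0 for both BLS12 arrays and antibody-treated BLS4 and 6 for unstimulated BLS4. For LN stroma against antibody-treated BLS12, 1755 of 10831 genes were 2-fold apart with both arrays at the median, and 835 of 12439 were 4-fold apart. Shares of all genes under these alternatives are not given here for the other pairs. With 1 array per group no array could be left out with a test remaining. Dim levels on the LN array limit the size of its differences.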
